A study of Mus musculus with 8 samples.

Results

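Fatty acids reach an adipocyte through a short chain of proteins, and 10 genes of that chain are described here in inguinal white adipose tissue (ING WAT) of mice at weaning and in young adulthood. The 10 genes were chosen by name, for what their products do: *Lpl*, *Gpihbp1* and *Angptl4* act on the release of fatty acids at the capillary wall, *Cd36*, *Slc27a1* and *Slc27a4* on entry across the membrane, *Fabp3*, *Fabp4* and *Fabp5* on binding in the cytosol, and *Acsl1* on activation to acyl-CoA. They were chosen with earlier results of these data known. They are 10 of 27454 genes with a value above 0 in at least 1 mouse. All 10 were among the 16092 genes that passed the filter of a mean of at least 1 FPKM over the 8 mice. FPKM counts fragments relative to transcript length and to library size, so that levels can be compared between genes. The FPKM of all transcripts assigned to a gene were added up.

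The samples were the inguinal depots of 8 C57BL/6j mice, 4 killed at postnatal day 21 (PN21; mice m1, m49, m138, m145) and 4 at postnatal day 98 (PN98; mice m35, m106, m114, m125). The labels name no genetic alteration for either group, and all mice were fasted before they were killed. After weaning, the animals of the study ate a semi-synthetic diet, followed by either a semi-synthetic or a western style diet; which of these the sequenced PN98 mice ate is not given in the sources used here. Age, the diet change at weaning and the later diet change therefore cannot be told apart in this comparison.

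White adipocytes store fatty acids that arrive mainly as triglycerides in lipoproteins. Lipoprotein lipase (LPL) is secreted by adipocytes, carried by GPIHBP1 across the capillary endothelium and held there, where it splits triglycerides; ANGPTL4 inactivates it, above all during fasting. CD36 and the fatty acid transport proteins FATP1 (*Slc27a1*) and FATP4 (*Slc27a4*) then take up the fatty acids, fatty acid binding proteins (FABPs) carry them through the cytosol, and ACSL1 couples them to coenzyme A for storage or oxidation.

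The expression of *Cd36* was 2.16-fold higher at PN98 than at PN21, and it was the only one of the 10 genes to pass an adjusted p of 0.05 over all genes tested. Of all genes, 843 (5.24%) passed, 374 (2.32%) as higher at PN98 and 469 (2.91%) as lower. At an unadjusted limma p under 0.05, 4 of the 10 were higher and 0 lower, against 8.18% and 19.0% of all genes. *Lpl*, *Slc27a1* and *Fabp4* were also higher in every PN98 mouse than in every PN21 mouse, with adjusted p-values just above 0.05. Such a separation, for 4 of the 10 genes, was found in 6.05% of all genes tested; the opposite one, with all PN98 mice below, was found in 1610 of the 16092 genes and in 0 of the 10. *Angptl4* and *Acsl1* had higher means at PN98 with overlapping mice, *Gpihbp1* and *Slc27a4* had similar means at both ages, and *Fabp3* and *Fabp5* had lower means with wide spreads between mice. The median log2 fold change of the 10 genes was 0.87, against -0.21 over all genes tested. Since earlier results were known when the 10 were chosen, these comparisons describe them and do not test them as a set.

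These counts moved with single mice and with the scaling between mice. The number of the 10 genes that passed was 0 without any 1 of m1, m138, m145, m106 or m114, and 4 without m35. Over all genes, 291, 279, 344, 200 and 291 passed in the former fits, and 3520 of 15983 without m35, against 843 of 16092 with all mice. With 2 other scalings, one by the median of ratios and one to equal sums of FPKM over nuclear genes, 4 and 3 of the 10 passed. Over all genes, 1206 of 16017 and 826 of 16069 passed under them. These scalings moved the median over all genes from -0.21 to -0.03 and 0.02, and the share of higher genes among all that passed from 44.4% to 61.7% and 68.8%. Relative to the median of all genes, the log2 fold changes of the 10 genes ran from -1.22 (*Fabp3*) and -0.30 (*Fabp5*) over 0.06 (*Slc27a4*) and 0.43 (*Gpihbp1*) to 1.08 or more for the other 6.

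**Figure D1:**
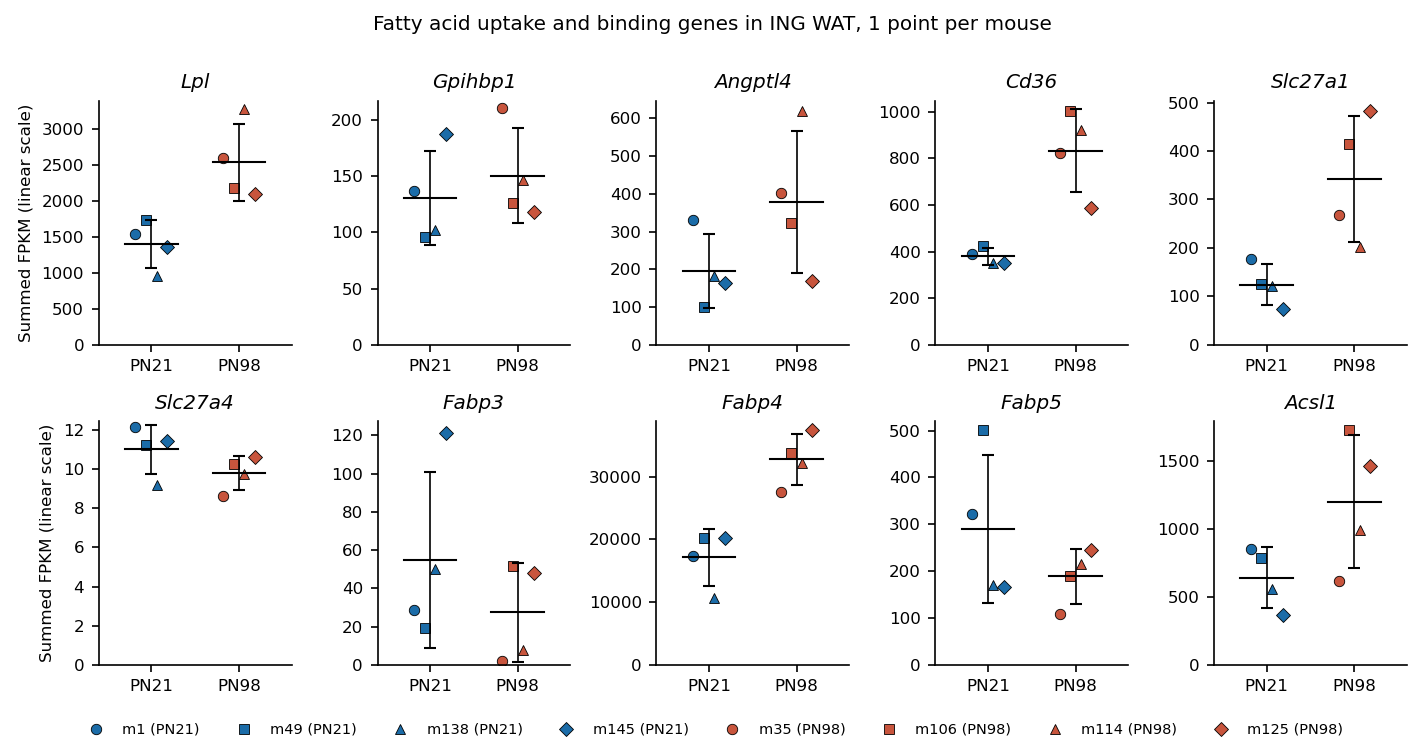
Summed FPKM of the 10 genes in each of the 8 mice, on a linear axis from 0 in each panel, with PN21 in blue and PN98 in red; horizontal lines are means and vertical bars are SD (n = 4 mice per age). The PN21 and PN98 points do not overlap for *Lpl*, *Cd36*, *Slc27a1* and *Fabp4*, and overlap for the other 6 genes.

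The levels spanned more than 3 orders of magnitude on the FPKM scale. *Fabp4* had the highest level at both ages, with a PN21 mean of 17129 ± 4526 FPKM and a PN98 mean of 32724 ± 4118 FPKM (both ± SD, n = 4), and was the most abundant of all nuclear genes in 3 of the 8 mice. *Lpl* came next, then *Acsl1* and *Cd36*, at both ages. The main transcripts of *Acsl1* and *Cd36* stood the other way round. Acsl1-201 had means of 325 FPKM at PN21 and 624 FPKM at PN98, and Cd36-204 of 372 and 816 FPKM. At PN21 the order went on with *Fabp5*, *Angptl4*, *Gpihbp1*, *Slc27a1*, *Fabp3* and *Slc27a4*. At PN98 it went on with *Angptl4*, *Slc27a1*, *Fabp5*, *Gpihbp1*, *Fabp3* and *Slc27a4*. The ranges over mice of neighbours in this order did not overlap between *Fabp4* and *Lpl* and between *Lpl* and *Acsl1* at either age, between *Fabp3* and *Slc27a4* at PN21, and between *Gpihbp1* and *Fabp3* at PN98; all other neighbours overlapped.

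Read numbers are unknown, since FPKM alone were used, and the error given is the spread between mice. The summed FPKM of a mouse ran from 1556745 (m106) to 2994572 (m145). Mitochondrial genes held 42.1% (m35) to 59.7% (m145) of it. A single mitochondrial tRNA gene, *mt-Ts1*, was listed at 1086570 FPKM in m145, 398384 FPKM in m35 and 0 in m106 and m125. The sums and shares therefore depend on this gene and do not rank the mice by mitochondrial content. On the first principal component of all genes tested (37.8% of the variance), the PN21 mice lay between -71.0 and -29.9 and 3 PN98 mice between 51.8 and 102, while PN98 mouse m35 lay at -33.9, within the range of PN21. Values without m35 are given beside the 10 genes and the gene lists where they change a call or a count. All 8 mice had 4 Y-linked genes above 1 FPKM and *Xist* below 1 FPKM. All 9 adipocyte markers were above 0 in every mouse, as the labelled tissue requires. Their sum lay between 5062 and 11281 FPKM at PN21 and between 11693 and 21934 FPKM at PN98. In such bulk samples, fewer cells of a type and less RNA per cell cannot be told apart.

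*Lpl* (ENSMUSG00000015568, chr8:68880491-68907448 in GRCm38, plus strand) encodes the enzyme that frees fatty acids from circulating triglycerides. Its level was 1539 FPKM in m1, 1739 in m49, 954 in m138 and 1354 in m145, all PN21, and 2594 FPKM in m35, 2181 in m106, 3271 in m114 and 2094 in m125, all PN98. Every PN98 mouse stood above every PN21 mouse. Its log2 fold change was 0.87 (SE 0.23, 95% interval 0.33 to 1.41), with a limma adjusted p of 0.0717. It therefore missed the threshold on the values as deposited. It passed with the other scalings between mice (adjusted p = 0.0326 with median of ratios and 0.0324 with equal nuclear sums). It also passed with limma's weighting of mice (adjusted p = 0.0360), under which 4641 of all 16092 genes passed. Under the other 16 of the 19 alternatives run it did not pass, with adjusted p up to 0.166 (without m114). The main coding transcript, Lpl-201, held 99.0% to 99.8% of the sum in every mouse.

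*Gpihbp1* (ENSMUSG00000022579, chr15:75596628-75599481, plus strand) encodes the protein of capillary endothelium that binds LPL. Its level was 137, 95.8, 102 and 188 FPKM at PN21 (m1, m49, m138, m145) and 211, 126, 147 and 118 FPKM at PN98 (m35, m106, m114, m125). The ages overlapped almost entirely. Between the ages it differed by 0.22 on the log2 scale (95% interval -0.41 to 0.85, limma adjusted p = 0.613), an interval that leaves room for a change in either direction. The endothelial markers stood beside it with a sum of 492 to 737 FPKM at PN21 and 261 to 846 FPKM at PN98, and of these 10 markers 0 passed in limma as higher or lower (1 was lower at an unadjusted p under 0.05). Without m35, 1 of them, *Emcn*, fell. *Pecam1*, which marks endothelium, had a log2 fold change of -0.55 (limma adjusted p = 0.385).

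*Angptl4* (ENSMUSG00000002289, chr17:33773750-33781830, minus strand) encodes the secreted inhibitor of LPL. Its level was 332, 99.3, 183 and 165 FPKM at PN21 and 402, 322, 620.0 and 168 FPKM at PN98, in the same order of mice. PN98 mouse m125 was at the level of the middle PN21 mice, and the other 3 PN98 mice were at or above 322 FPKM, a level reached by m1 alone at PN21. The spread within an age was wide: the highest mouse was 3.34 times the lowest at PN21 and 3.69 times at PN98. A log2 fold change of 0.94 (95% interval -0.13 to 2.01) did not pass (limma adjusted p = 0.225).

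The mRNA of the inhibitor and of the anchor can also be set against that of the enzyme. This gives a ratio within each mouse that does not depend on the scaling between mice. Protein was not measured for these genes. Over 7 such ratios a two-sided exact permutation test of the mean log2 ratio was run over the 70 splits of 8 mice into 4 and 4; it cannot give a p below 0.0286. The *Angptl4* sum was 85.3% to 91.6% Angptl4-202, which GENCODE labels as a target of nonsense-mediated decay. *Angptl4* to *Lpl* was 0.215, 0.0571, 0.192 and 0.122 at PN21 and 0.155, 0.148, 0.190 and 0.0802 at PN98. The PN98 values all lay within the PN21 range, the difference of the mean log2 ratios was 0.07 (exact p = 0.914), and its sign turned with mice left out. *Gpihbp1* to *Lpl* was 0.0551 to 0.139 at PN21 and 0.0449 to 0.0813 at PN98, a log2 difference of -0.65 (exact p = 0.114, adjusted p = 0.133). *Gpihbp1* to *Pecam1* was 1.07 to 2.63 at PN21 and 1.90 to 4.59 at PN98 (log2 difference 0.78, exact p = 0.0857, adjusted p = 0.133).

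*Lpl* was also set against *Adipoq*, the adiponectin gene, which adipocytes express. The ratio of *Lpl* to *Adipoq* was 1.22, 1.36, 1.17 and 1.43 at PN21 and 0.962, 0.868, 0.896 and 0.756 at PN98. Every PN98 mouse was below every PN21 mouse, with a log2 difference of -0.57 (exact p = 0.0286, the smallest this design allows, adjusted p = 0.0667). *Adipoq* itself rose by 1.45 on the log2 scale (limma adjusted p = 0.0112). So *Lpl* was higher at PN98 in FPKM, and its ratio to *Adipoq* was lower in all 4 PN98 mice. Neither difference passed an adjusted p of 0.05 on the values as deposited. For the ratio this decides nothing, since with 4 mice per age a single ratio could not pass the correction by itself. *Adipoq* is 1 of the 9 adipocyte markers. The log2 fold change of *Lpl*, 0.87, lay above those of *Retn* (0.33), *Cfd* (0.63) and *Pnpla2* (0.85). It lay below those of *Plin1* (0.89), *Lipe* (0.99), *Adipoq* (1.45), *Plin4* (2.13), *Cidec* (2.16) and *Lep* (2.20). Ratios of *Lpl* to these other markers were not tested.

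*Cd36* (ENSMUSG00000002944, chr5:17781690-17888801, minus strand) encodes the fatty acid translocase of the plasma membrane. Its level was 389, 424, 352 and 349 FPKM at PN21, the narrowest spread of the 10 genes at that age, and 823, 1001, 922 and 588 FPKM at PN98. The lowest PN98 mouse, m125, stood above the highest PN21 mouse, m49. The log2 fold change was 1.11 (SE 0.19, 95% interval 0.67 to 1.56, limma adjusted p = 0.0211). The call was lost without any 1 of m1, m138, m145, m106 or m114 (adjusted p = 0.0610, 0.0643, 0.0586, 0.0713 and 0.0645), whereas the fold change then lay between 1.02 and 1.13. Without m35 it was kept (adjusted p = 0.0162).

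*Cd36* has several first exons, and the table lists 3 transcripts. Cd36-204 held 97.4% to 98.8% of the sum in every mouse. Cd36-203, whose first base lies 38955 bases upstream of that of Cd36-204, was at or below 0.253 FPKM in every PN21 mouse and at 2.95, 3.42, 5.11 and 1.82 FPKM in PN98 mice m35, m106, m114 and m125. Every PN98 mouse was thus above every PN21 mouse for this minor transcript too, at no more than 0.554% of the gene. Its limma adjusted p over the 23150 transcripts tested was 0.176, and that of Cd36-204 was 0.0558. Cd36-203 entered that test only through its PN98 level. How fragments are divided among transcripts of 1 gene is an estimate by Cufflinks, less certain than the sum.

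The RefSeq start of *Cd36* lies 200 bases upstream of the first base of Cd36-201, the third transcript, which starts 14096 bases downstream of Cd36-204 and held 1.16% to 2.26% of the sum. The 250 bases before that start are shown because *Cd36* had the change that passed. In this and the following promoters (RefSeq, GRCm38.p6), capitals mark the CCAAT box, the GC box GGGCGG, the half-site AGGTCA and the TATA box TATAAA on either strand, so that TGACCT is AGGTCA and ATTGG is CCAAT read on the other strand. The letters AGGTCA are bound by nuclear receptors such as PPARγ, which adipocytes use to drive many of these genes.
Cd36 promoter, chr5:17835897-17836146, minus strand: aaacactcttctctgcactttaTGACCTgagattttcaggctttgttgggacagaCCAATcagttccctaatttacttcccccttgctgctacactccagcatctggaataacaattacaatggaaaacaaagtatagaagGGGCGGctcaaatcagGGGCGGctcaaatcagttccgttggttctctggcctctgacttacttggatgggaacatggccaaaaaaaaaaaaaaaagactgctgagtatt
The *Cd36* window held 1 AGGTCA, 1 CCAAT and 2 GGGCGG. Of 32851 RefSeq windows of 250 bases, AGGTCA stood in 14%, CCAAT in 33.8%, GGGCGG in 32.7% and TATAAA in 12.4%. The full repeat, AGGTCA followed by itself with 1 base between, stood in 0.0335% of all windows and in none of the windows of the 5 of these 10 genes that had a RefSeq entry here (*Cd36*, *Slc27a1*, *Slc27a4*, *Fabp3* and *Acsl1*). A match is a run of letters, not a bound site.

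*Slc27a1* (ENSMUSG00000031808, chr8:71568882-71587302, plus strand), which encodes the insulin-responsive transport protein FATP1, had the largest log2 fold change of the 10 genes. Its level was 177, 124.8, 122 and 72.8 FPKM at PN21 and 268, 415, 201 and 483 FPKM at PN98. The lowest PN98 mouse, m114, was above the highest PN21 mouse, m1. Its log2 fold change was 1.44 (SE 0.35, 95% interval 0.63 to 2.25), a fold of 2.71, with a limma adjusted p of 0.0557. It passed without m35 (adjusted p = 0.0320), with median of ratios scaling (0.0463) and with weighted mice (0.0140). Under the other 16 of the 19 alternatives run it did not pass, with adjusted p up to 0.151 (without m106).

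*Slc27a4* (ENSMUSG00000059316, chr2:29802634-29817522, plus strand) encodes FATP4, another member of the same family. Its level was 12.1, 11.2, 9.20 and 11.4 FPKM at PN21 and 8.61, 10.2, 9.73 and 10.6 FPKM at PN98. It was the lowest and, at PN98, the least variable of the 10 genes, with overlapping ages. The log2 fold change was -0.15 (95% interval -0.48 to 0.18, limma adjusted p = 0.513), and its sign turned when mice were scaled otherwise (0.05 by median of ratios, 0.11 by equal nuclear sums), so that no direction can be given. The interval excludes a change as large as that of *Slc27a1*.

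The ratio of *Slc27a1* to *Slc27a4* was 14.6, 11.1, 13.3 and 6.37 at PN21 and 31.2, 40.5, 20.7 and 45.5 at PN98. The ages did not overlap. The log2 difference was 1.61 (exact p = 0.0286, adjusted p = 0.0667), a ratio 3.05-fold higher at PN98. The promoters of both are shown because the genes of this pair differed in their values.
Slc27a1 promoter, chr8:71568621-71568870, plus strand: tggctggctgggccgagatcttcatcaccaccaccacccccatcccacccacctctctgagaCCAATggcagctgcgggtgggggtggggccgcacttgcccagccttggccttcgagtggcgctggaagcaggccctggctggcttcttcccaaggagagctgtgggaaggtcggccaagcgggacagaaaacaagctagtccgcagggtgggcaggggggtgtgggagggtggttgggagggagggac
Slc27a4 promoter, chr2:29802384-29802633, plus strand: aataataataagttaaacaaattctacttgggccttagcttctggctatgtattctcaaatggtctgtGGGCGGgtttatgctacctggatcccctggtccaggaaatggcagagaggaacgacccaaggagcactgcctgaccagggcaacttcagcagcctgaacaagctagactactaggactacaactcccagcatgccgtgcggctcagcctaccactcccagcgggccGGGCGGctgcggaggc
The *Slc27a1* window, the first of 3 that RefSeq lists for the gene and 66.4% G and C, held 1 CCAAT and none of the other letters. Of the windows not shown, the second held 1 GGGCGG, and the third held 3 GGGCGG and 1 CCAAT. The *Slc27a4* window, 54.4% G and C, held 2 GGGCGG and none of the others.

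**Figure D2:**
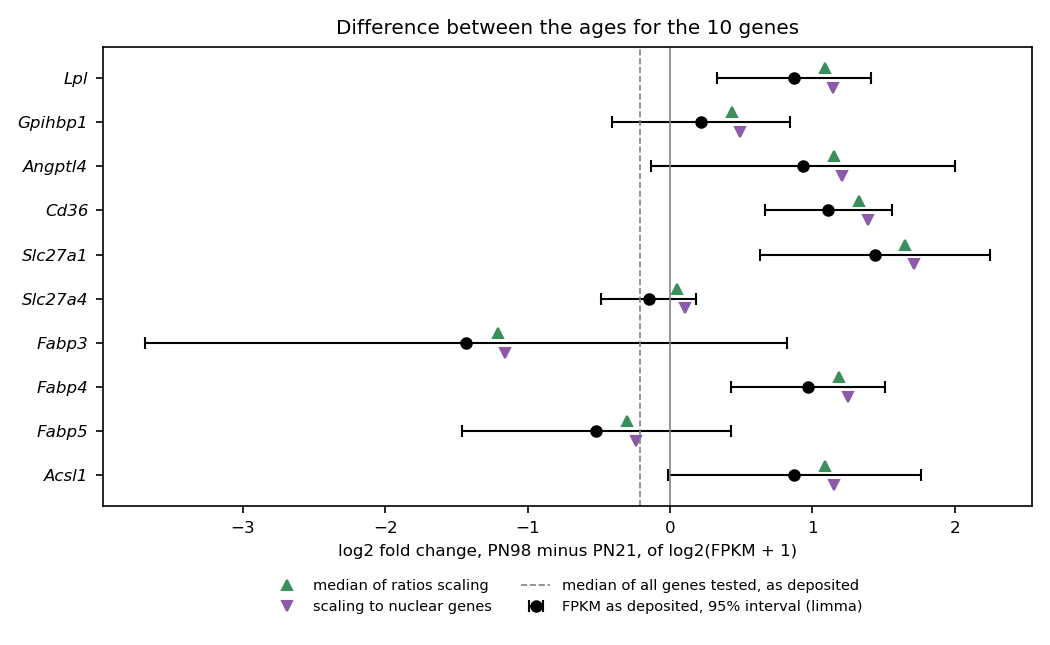
log2 fold change (PN98 minus PN21, horizontal axis) of the 10 genes, with black points and bars for the limma estimate and its 95% interval on the values as deposited and triangles for 2 other scalings between mice; the dashed line is the median of all genes tested. *Lpl*, *Cd36*, *Slc27a1* and *Fabp4* have intervals above 0, and the triangles of *Slc27a4* fall on the other side of 0 from its point.

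*Fabp4* (ENSMUSG00000062515, chr3:10204088-10208576, minus strand) encodes aP2, the main FABP of adipocytes. Its level was 17404, 20219.7, 10641 and 20251 FPKM at PN21 and 27521, 33735, 32174.5 and 37466 FPKM at PN98. Every PN98 mouse was above every PN21 mouse, and it took 1.11% to 1.88% of the FPKM of all nuclear genes at PN21 against 2.78% to 4.61% at PN98. The log2 fold change was 0.97 (SE 0.24, 95% interval 0.43 to 1.51), with a limma adjusted p of 0.0541. It passed under 6 of the 19 alternatives run. Among them were those without m35 (adjusted p = 0.0277), with weighted mice (0.0111) and with both other scalings (0.0476 and 0.0263). Under the other 13 it did not pass, with adjusted p up to 0.145 (without m106).

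*Fabp5* (ENSMUSG00000027533, chr3:10012548-10016607, plus strand) encodes the FABP that adipocytes share with keratinocytes, macrophages and capillary endothelium. Its level was 321, 500.2, 170.0 and 166 FPKM at PN21 and 108, 189.8, 215 and 244 FPKM at PN98. The higher mean at PN21 came from m1 and m49, while m138 and m145 were within the PN98 range. A log2 fold change of -0.52 (95% interval -1.46 to 0.43) did not pass (limma adjusted p = 0.434). Keratinocyte and mammary markers summed to 10.01, 77.7, 3.83 and 31.4 FPKM in m1, m49, m138 and m145 and to 1.70 to 2.84 FPKM at PN98, with *Krt14* listed at 0 in all 4 PN98 mice. Macrophage markers summed to 80.2 to 120.1 FPKM at PN21 and 54.8 to 154 FPKM at PN98, and 0 of 8 passed in limma (1 was higher at an unadjusted p under 0.05). The part of these cells in the level of *Fabp5* was not tested.

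*Fabp3* (ENSMUSG00000028773, chr4:130308595-130315463, plus strand) encodes the FABP of heart, muscle and brown fat. Its level was 28.6, 19.4, 50.0 and 121 FPKM at PN21 and 2.09, 51.8, 7.92 and 47.8 FPKM at PN98. PN98 mice m106 and m125 lay within the PN21 range, and m35 and m114 lay below all PN21 mice. No other of the 10 genes varied as much: the highest mouse was 6.27 times the lowest at PN21 and 24.8 times at PN98. Its log2 fold change was -1.43 (95% interval -3.69 to 0.83, limma adjusted p = 0.362). It was -0.63 without m35, -0.14 without m35 and m145, and -0.10 with weighted mice.

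The brown adipocyte markers varied beside it at PN98. *Ucp1*, the uncoupling protein of brown and beige adipocytes, stood at 7.41 and 56.3 FPKM in m35 and m114, the PN98 mice with little *Fabp3*, and at 278 and 356 FPKM in m106 and m125. At PN21 *Ucp1* was 544 to 650 FPKM (649.9 in m49, the PN21 mouse with the least *Fabp3*). The summed brown markers were 3155 to 6547 FPKM at PN21 and 384, 2544, 1051 and 4375 FPKM in m35, m106, m114 and m125, and 0 of 8 passed in limma (3 were lower at an unadjusted p under 0.05), also without m35. Of the 8, 7 had a negative log2 fold change, the largest being those of *Ucp1* (-2.81, limma adjusted p = 0.149) and *Cox7a1* (-2.48, 0.0910). *Elovl3* went the other way (1.81, limma adjusted p = 0.351). Of the 10 skeletal muscle markers tested, 2 passed as higher at PN98 and 7 had an unadjusted limma p under 0.05. The number that passed was 6 with each of the other scalings and without m35, and 0 without m35 and m145. *Atp2a1* and *Actn3* rose (4.20 and 3.62, limma adjusted p = 0.0406 and 0.0335; both were lost without any 1 of m1, m49, m145, m106 or m114, with adjusted p up to 0.116 and 0.0930, and *Atp2a1* also without m125). *Mb*, *Myh1*, *Mylpf* and *Tnnc2* overlapped between the ages. The 10 markers summed to 14.1 to 484 FPKM at PN21 and 468 to 3137 FPKM at PN98, with PN21 mouse m138 above PN98 mouse m125. Without *Mylpf* and *Tnnc2*, of which transcripts with unresolved decimals were left out, the sums were 10.9 to 334 and 395 to 2738 FPKM. Muscle also expresses *Lpl*, *Cd36*, *Slc27a1*, *Fabp3* and *Acsl1*; its part in their levels was not tested.

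*Fabp3* and *Fabp5* each have a near-identical processed pseudogene, a copy of the spliced mRNA elsewhere in the genome, with which reads can be shared. The values of both genes are therefore uncertain. *Fabp3-ps1* (chr10:86731987-86732388, minus strand) is 402 bases long, the coding sequence from start to stop, and differs from transcript Fabp3-201 at 3 bases, an identity of 99.3%. The stretch from base 38 to base 336 of the copy holds all 3 and is shown for both, with the differing bases in capitals, to show how little separates them.
Fabp3-201, bases 221 to 519: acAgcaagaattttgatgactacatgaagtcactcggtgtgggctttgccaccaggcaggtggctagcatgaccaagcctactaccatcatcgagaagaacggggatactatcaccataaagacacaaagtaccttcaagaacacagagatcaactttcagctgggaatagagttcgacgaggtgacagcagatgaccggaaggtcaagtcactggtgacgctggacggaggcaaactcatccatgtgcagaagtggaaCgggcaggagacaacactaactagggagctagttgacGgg
Fabp3-ps1, bases 38 to 336: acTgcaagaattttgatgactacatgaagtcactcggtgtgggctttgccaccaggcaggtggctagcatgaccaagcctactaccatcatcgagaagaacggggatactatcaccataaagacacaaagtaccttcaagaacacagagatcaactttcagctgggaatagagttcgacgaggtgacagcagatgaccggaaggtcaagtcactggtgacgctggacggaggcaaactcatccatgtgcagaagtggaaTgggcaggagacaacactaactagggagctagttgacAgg
Of the 303 windows of 100 bases, the read length, in *Fabp3-ps1*, 157 (51.8%) stand letter for letter in Fabp3-201. *Fabp3-ps1* was listed at 34.6, 20.8, 57.0 and 139 FPKM at PN21 and 1.70, 61.2, 7.77 and 53.9 FPKM at PN98, which is 0.813 to 1.21 times *Fabp3* in the same mouse.

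For *Fabp5* the copy is *Gm6166* (chr9:57483963-57484371, plus strand), 409 bases long, with 5 mismatches and 2 gap bases against transcript Fabp5-201 and an identity of 98.8%. It was listed at 1.04 to 1.13 times *Fabp5* in the same mouse. When the copies were added to their genes, the log2 fold change was -1.58 for *Fabp3* (limma adjusted p = 0.354) and -0.55 for *Fabp5* (0.403), against -1.43 and -0.52 without them.

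**Figure D3:**
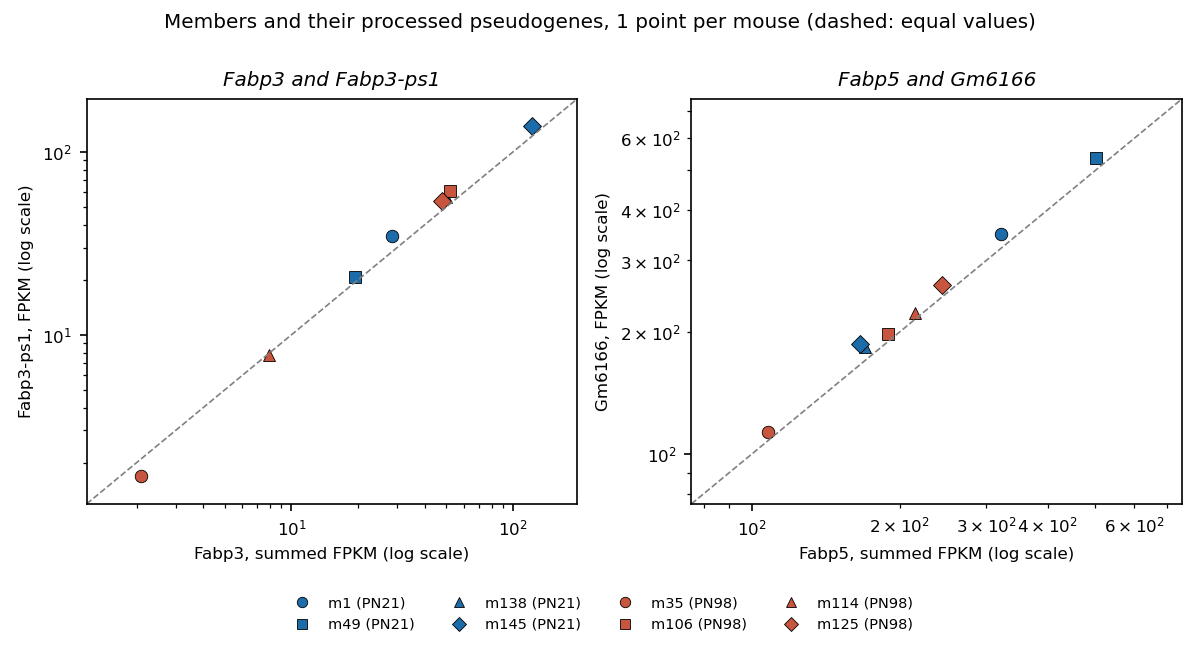
FPKM of the processed pseudogenes (vertical axis, log scale) against summed FPKM of the genes they were copied from (horizontal axis, log scale), 1 point per mouse, PN21 in blue and PN98 in red. The points run along the dashed line of equal values, at 0.813 to 1.21 times *Fabp3* for *Fabp3-ps1* and 1.04 to 1.13 times *Fabp5* for *Gm6166*.

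Set against the adipocyte FABP, the other FABPs had smaller ratios at PN98. *Fabp5* to *Fabp4* was 0.0184, 0.0247, 0.0160 and 0.00821 at PN21 and 0.00392, 0.00563, 0.00669 and 0.00652 at PN98. The ages did not overlap, with m145 nearest to PN98. The log2 difference was -1.49 (exact p = 0.0286, adjusted p = 0.0667). *Fabp3* to *Fabp4* was 0.000958 to 0.00599 at PN21 and 7.6e-05 to 0.00154 at PN98, overlapping, with a log2 difference of -2.56 (exact p = 0.114, adjusted p = 0.133). None of the 7 ratios passed the correction over the 7. A ratio whose ages do not overlap has the smallest possible exact p, 0.0286, and could not pass that correction by itself.

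**Figure D4:**
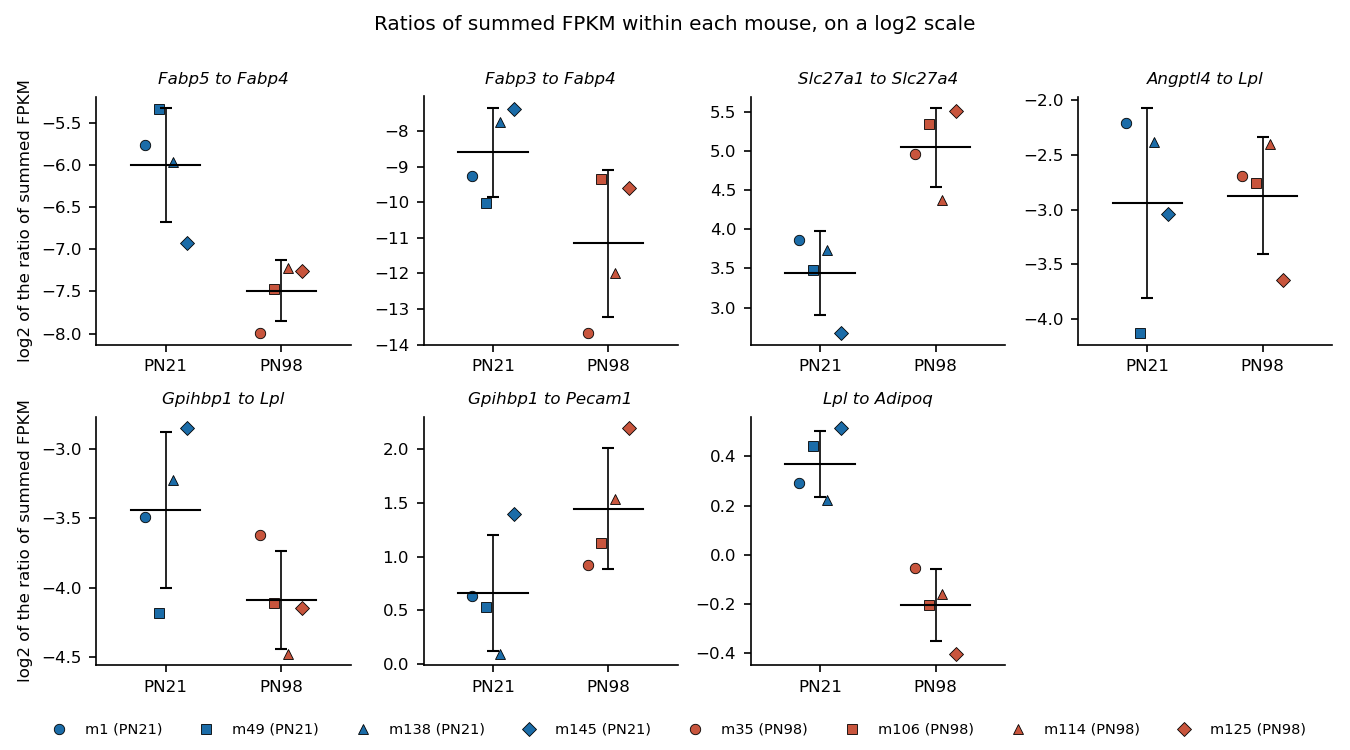
The 7 ratios of summed FPKM within each mouse, as log2 values (vertical axis), with PN21 in blue and PN98 in red, lines for the means and bars for SD (n = 4 mice per age). The ages do not overlap for *Fabp5* to *Fabp4*, *Slc27a1* to *Slc27a4* and *Lpl* to *Adipoq*, and overlap for the other 4 ratios.

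*Acsl1* (ENSMUSG00000018796, chr8:46471037-46536051, plus strand) encodes the main long-chain acyl-CoA synthetase of adipocytes. Its level was 853, 791, 561 and 365 FPKM at PN21 and 622, 1728, 996 and 1464 FPKM at PN98. PN98 mouse m35 was below m1 and m49, and the other 3 PN98 mice were above all PN21 mice. The log2 fold change was 0.87 (SE 0.39, 95% interval -0.01 to 1.76), with a limma adjusted p of 0.187. Without m35 it was 1.16 (adjusted p = 0.0490), and with weighted mice 1.06 (adjusted p = 0.0367). Under the other 17 of the 19 alternatives run *Acsl1* did not pass, with adjusted p up to 0.372 (without m106).

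Of the 8 *Acsl1* transcripts, Acsl1-201 held 38.4% to 67.6% of the sum and Acsl1-208, a short transcript near the end of the gene, 30.5% to 43.3%. Acsl1-203 starts 19929 bases downstream of Acsl1-201, at a RefSeq start within the gene. It was estimated at 134, 0.505, 59.7 and 7.6e-06 FPKM at PN21 and at 42.9, 98.5, 74.0 and 82.5 FPKM at PN98. Its share was 5.63% to 7.44% in the PN98 mice, and at PN21 it ran from near 0 in m49 and m145 to 15.7% in m1. The ages overlapped. The promoters of both starts are shown, because these transcripts differ by where they begin.
Acsl1-201 promoter, chr8:46470787-46471036, plus strand: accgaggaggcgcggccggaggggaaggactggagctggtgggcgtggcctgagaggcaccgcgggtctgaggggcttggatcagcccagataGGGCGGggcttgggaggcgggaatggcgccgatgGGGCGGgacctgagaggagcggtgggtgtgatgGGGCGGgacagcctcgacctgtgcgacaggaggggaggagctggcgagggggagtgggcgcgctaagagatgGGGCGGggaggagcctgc
Acsl1-203 promoter, chr8:46490716-46490965, plus strand: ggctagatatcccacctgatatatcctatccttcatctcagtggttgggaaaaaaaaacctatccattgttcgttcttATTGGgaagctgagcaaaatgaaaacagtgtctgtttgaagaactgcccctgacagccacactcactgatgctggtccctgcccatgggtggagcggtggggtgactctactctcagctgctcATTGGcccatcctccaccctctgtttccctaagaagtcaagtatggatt
The first window, 72% G and C, held 4 GGGCGG and none of the other letters, and the second, 48.4% G and C, held 2 CCAAT and none of the others.

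Over all 10 genes the table listed 27 transcripts, and 23 passed the filter of the study for a test of single transcripts. Of these, 8 had an unadjusted limma p under 0.05, all higher at PN98 and from *Lpl*, *Cd36*, *Slc27a1*, *Fabp4* and *Acsl1*; over all 23150 transcripts tested, 6.92% were higher and 14.8% lower by that rule. Among the 8 was Cd36-203, which entered the test only through its PN98 mean of 3.33 FPKM (0.114 FPKM at PN21). With a mean above 2 FPKM required at both ages, the count was 7, against 4021 of 19412 transcripts in either direction. At an adjusted p of 0.05, 0 of the 23 passed, against 1.33% of all transcripts. For *Angptl4*, the transcript that carried the sum in every mouse, with 85.3% to 91.6%, was Angptl4-202, which GENCODE labels as a target of nonsense-mediated decay. The full-length coding Angptl4-201 was estimated at 1.85% to 3.18%. These are estimates for overlapping transcripts.

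**Figure D5:**
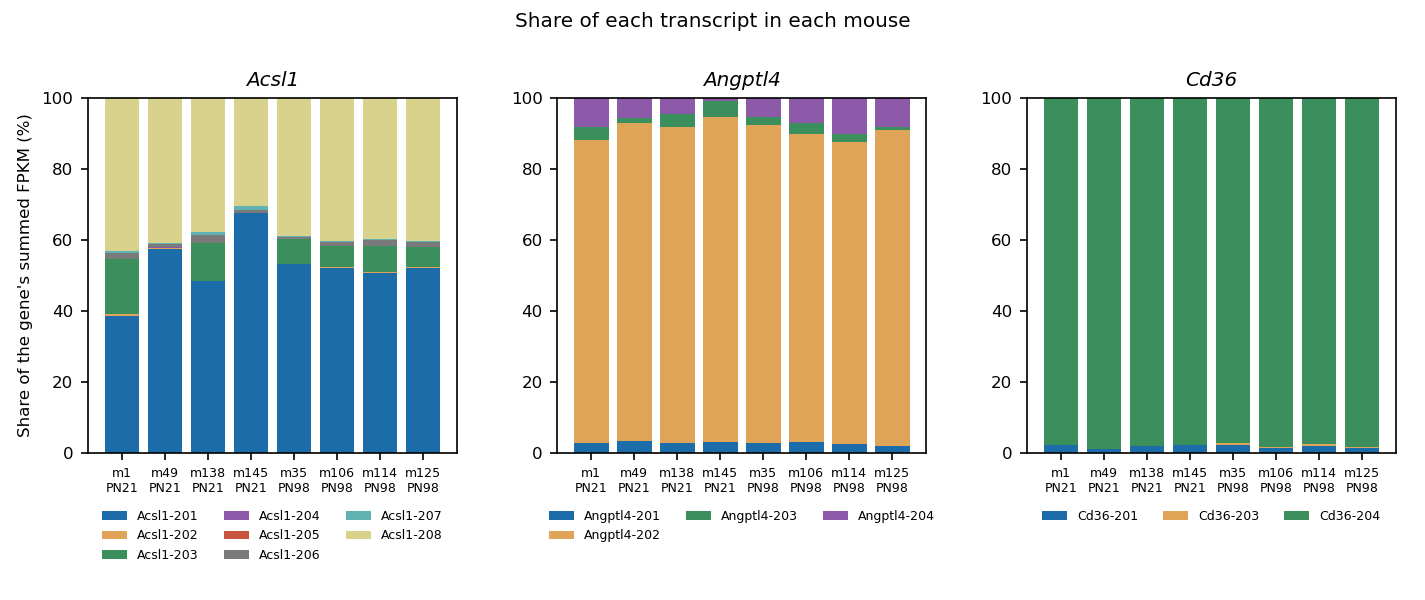
Share of each transcript in the summed FPKM of *Acsl1*, *Angptl4* and *Cd36* (vertical axis, %), 1 stacked bar per mouse in the order m1, m49, m138, m145 (PN21), m35, m106, m114, m125 (PN98). Acsl1-203 is near 0 in m49 and m145 and 15.7% in m1, while Angptl4-202 and Cd36-204 carry most of their genes in all 8 mice.

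The other genes around LPL were measured as well. Of 16 genes for LPL assembly, cofactors and inhibitors, 15 were tested, 2 rose and 0 fell in limma (3 and 2 at an unadjusted p under 0.05). Their median was -0.27 on the log2 scale as deposited and 0.01 with equal nuclear sums. *Pcsk6*, a proprotein convertase that can cleave LPL, rose by 1.18 on the log2 scale (limma adjusted p = 0.0260), from 8.49 to 13.5 FPKM at PN21 to 21.0 to 36.0 FPKM at PN98. *Sort1*, the sorting receptor sortilin, rose by 1.08 (limma adjusted p = 0.0291), from 26.9 to 45.1 FPKM to 58.9 to 93.0 FPKM. The call of *Pcsk6* was lost without any 1 of m1, m49, m138, m106 or m114 (adjusted p up to 0.0741), and that of *Sort1* without any 1 of m49, m138, m145, m106, m114 or m125 (up to 0.0984).

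Among 6 lipoprotein receptors, 5 were tested, 1 rose and 0 fell in limma (2 and 2 at an unadjusted p under 0.05), with a median of -0.36; 2 rose and 0 fell under both other scalings, and 2 rose and 2 fell without m35. The gene that rose was *Vldlr*, which binds triglyceride-rich lipoproteins beside LPL. Its level was 8.98 to 13.1 FPKM at PN21 and 26.1 to 40.0 FPKM at PN98, a log2 fold change of 1.39 (limma adjusted p = 0.00887), and it passed under all 19 alternatives run.

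On the side of entry, 2 of the 4 other fatty acid transport proteins were tested and neither passed: *Slc27a3* had a log2 fold change of -0.74 (limma adjusted p = 0.121) and *Slc27a2* of 0.39 (0.831). Of 10 genes for caveolae and membrane partners of CD36, 0 rose and 1 fell in limma (3 and 1 at an unadjusted p under 0.05), with a median of 0.35. Scaled by median of ratios, 2 rose and 1 fell, and scaled to equal nuclear sums, 2 rose and 0 fell; the 2 were *Cav2* and *Cavin2*, of the caveolar coat (0.91 and 0.81 as deposited, limma adjusted p = 0.0713 and 0.102). *Got2*, whose product FABPpm is known as a mitochondrial transaminase and as a fatty acid binder at the plasma membrane, fell by 0.85 on the log2 scale (limma adjusted p = 0.0320), from 19.7 to 23.2 FPKM to 9.49 to 14.9 FPKM. Its call was lost with equal nuclear sums (adjusted p = 0.0975) and with each mouse but m35 left out (up to 0.0929).

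Of 11 other genes of the FABP family, 5 were tested, 0 rose and 1 fell in limma (0 and 3 at an unadjusted p under 0.05), with 3 lower without m35, 2 by median of ratios and 0 by equal nuclear sums. *Pmp2*, the myelin FABP, was 0.548 to 3.35 FPKM at PN21 and 0.0333 to 0.396 FPKM at PN98, a log2 fold change of -1.40 (limma adjusted p = 0.0499), close to the threshold. That call was lost under 5 of 10 other settings and without any 1 of m1, m138, m106, m114 or m125 (adjusted p up to 0.131). Of 14 genes for other acyl-CoA synthetases and acyl-CoA handling, 13 were tested and 0 passed in limma, nor did any at an unadjusted p under 0.05 (without m35, 1, *Acsbg1*, fell), with a median of -0.07 that turned to 0.12 and 0.17 under the other scalings; the largest differences were those of *Acot11* (-1.01, limma adjusted p = 0.466) and *Acot2* (0.69, 0.224).

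Of 11 genes for fatty acid transport in endothelium, 0 passed in limma (1 was higher and 1 lower at an unadjusted p under 0.05; without m35, *Vegfb* rose and *Apln* fell), with a median of -0.16 (0.05 and 0.11 under the other scalings); *Apln* and *Aplnr*, the ligand and the receptor of the apelin system, had log2 fold changes of -1.49 and -1.47 (limma adjusted p = 0.0810 and 0.191). Of 12 transcription factors and cofactors of the pathway, 0 passed in limma (likewise 1 higher and 1 lower unadjusted), with a median of -0.22 (0.05 with equal nuclear sums); the largest differences were those of *Ppargc1b* (-1.17, limma adjusted p = 0.0852) and *Cebpb* (-0.83, 0.238). *Pparg*, the receptor that drives many genes of this chain, had a log2 fold change of -0.26 (adjusted p = 0.597), which turned to 0.01 with equal nuclear sums.

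The adipocyte markers moved with the genes that were higher at PN98. All 9 had a positive log2 fold change, with a median of 0.99, and 4 rose: *Cidec* by 2.16, *Plin4* by 2.13, *Adipoq* by 1.45 and *Lipe* by 0.99 on the log2 scale (limma adjusted p = 0.00231, 0.00238, 0.0112 and 0.0423). *Lipe* passed without m35 and in none of the 7 other fits with a mouse left out. Without m35, 5 adipocyte markers passed, and with the other scalings 5 and 6 did. Among 7 progenitor markers *Dlk1* fell by 2.91 (limma adjusted p = 0.00558), and without m35 *Pdgfrb* fell as well. Among the 6 keratinocyte and mammary markers tested *Epcam* fell by 1.16 (limma adjusted p = 0.0423). That call was lost without any 1 of m49, m138, m106, m114 or m125, with adjusted p up to 0.125. Of 8 lymphocyte markers 0 passed in limma (4 were lower at an unadjusted p under 0.05), whereas all 8 fell without m35. Lymphocyte markers summed to 369 to 902 FPKM at PN21, to 825 FPKM in PN98 mouse m35 and to 17.2 to 158 FPKM in the other 3 PN98 mice. The part of the makeup of the depot in the levels of the 10 genes was not tested.

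How alike the 10 genes were over mice was measured as the mean absolute difference between log2(FPKM + 1) profiles, each centred on its own mean over the 8 mice. The closest pairs were *Lpl* and *Cd36* (0.24), *Lpl* and *Fabp4* (0.26) and *Slc27a1* and *Acsl1* (0.34), and the farthest *Angptl4* and *Fabp3* (1.76). Among 11048 other genes with a mean of at least 5 FPKM, the nearest to *Lpl* was *Ugt1a6b* (0.07), to *Gpihbp1* *Smim14* (0.14), to *Angptl4* *Pcbp3* (0.18), to *Cd36* *Fgf10* (0.13), to *Slc27a1* *Acad11* (0.17), to *Slc27a4* *Rnf5* (0.05), to *Fabp4* *Mgst1* (0.12) and to *Acsl1* *Plin2* (0.12). *Plin2*, which coats lipid droplets, was 789, 874, 507 and 415 FPKM at PN21 and 508, 1575, 963 and 1445 FPKM at PN98, with m35 low among the PN98 mice, as for *Acsl1*. For *Fabp3* and *Fabp5* the nearest genes were their own copies, *Fabp3-ps1* (0.12) and *Gm6166* (0.03).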

How the data were processed

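RNA of the inguinal depot of 8 mice was selected for poly(A), sequenced in pairs of 100 bases on a HiSeq, mapped to mm10 (GRCm38) with STAR 2.3.0 and quantified with Cufflinks 2.1.1 on a Gencode annotation. The values the authors deposited are FPKM, 1 per transcript and mouse. Decimal marks were missing from values of 40380 of the 91969 transcripts; they were restored from the standard deviation, average and score that the authors deposited beside them (over 10 libraries, of which 2 are not analysed here). For 61 transcripts, none of the 10 genes, no single reading was left and they were not used. All 5009 restored transcripts that also stand in the deposited comparison table equalled its FPKM values in all 8 mice. The fold changes and p-values of that table were not used.

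Transcripts were assigned to genes with GENCODE (88737), else by a single gene ID of the file (1928), and FPKM were summed per gene. log2(FPKM + 1) of genes with a mean of at least 1 FPKM was compared between ages with limma 3.58.1 in R 4.3.3, PN98 minus PN21, with no covariate, as the study used limma, and Benjamini-Hochberg adjustment over all genes tested. Fold changes on this scale understate those of low genes. Single transcripts were tested on log2(FPKM) where above 0 in all mice and above a mean of 2 FPKM at either age. Ratios were compared with exact permutation tests. Scripts were tested on simulated data. Each mouse is 1 sample. Litters are not given, so the tests treat these mice as independent, which littermates may not be.

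From each gene list the genes with an adjusted p under 0.05 were named (at most 4), or else the 2 with the largest difference. The markers of endothelium, macrophages and lymphocytes, of which none passed, were instead given as sums and counts. For each of the 10 genes, the gene with the nearest profile was named too. *Pparg*, *Pecam1*, *Krt14*, *Cav2*, *Cavin2*, *Emcn*, *Acsbg1*, *Vegfb*, *Pdgfrb*, *Elovl3* and *mt-Ts1* were named after their values were seen. So were the muscle markers that overlapped and the adipocyte markers set beside *Lpl* that did not pass. The 10 genes and the lists were chosen with earlier results of these data known. Alternatives were other pseudocounts, filters, scalings, weights and variance settings, rows shared between genes, and each mouse left out. Leaving out m35 with m145 and adding the pseudogene copies were chosen after seeing the data. Promoters came from RefSeq (GRCm38.p6) and the copies were compared on the GENCODE transcripts.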

Additional observations from a re-analysis of the deposited data

How the results depend on the processing

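*Cd36* was the 1 gene that passed as higher at PN98. The number that passed was 2 with a pseudocount of 5, 4 with median of ratios scaling, 3 with scaling to equal nuclear sums, 5 with limma's weighting of mice and 2 without m35 and m145; with each mouse left out in turn it ran from 0 to 4, and with the other settings it stayed at 1. The number lower was 0 under all 19 alternatives; by unadjusted p under 0.05 it was 0 as well. *Slc27a4* turned from -0.15 to 0.0501 with median of ratios scaling and to 0.11 with equal nuclear sums. The log2 difference of *Angptl4* to *Lpl* turned from 0.07 to -0.0254 without m35 and m145 and ran from -0.33 to 0.32 with each mouse left out. The other 9 genes and 6 ratios kept their direction under every alternative run. The number of transcripts with an unadjusted p under 0.05 was 8, and 6 to 10 under its 12 alternatives. Over all genes, 843 passed; 4641 did with weighted mice, 3520 without m35, 2498 without m35 and m145, 200 to 568 without another mouse and 1206 with median of ratios scaling. The cause was not tested. No paired analysis was possible because the mouse numbers pair no mice across ages. Depth is unknown, and 4 mice per age limit the exact test to a p of 0.0286.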
